A study of Mus musculus with 4 samples.

Results

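The stretch of mouse chromosome 10 around Hmga2 was examined transcript by transcript in fibroblasts with and without Hmga2. The transcripts were chosen by position alone: those that start between 110361275 and 130476935 on chromosome 10 of the mm10 genome build, that is within 10 Mb of Hmga2 on either side, without the 7 transcripts that overlap Hmga2 itself on either strand. This gave 696 of the 63759 transcripts measured, 295 at lower and 401 at higher coordinates than Hmga2 (120361275 to 120476935, minus strand). RNA-seq of total RNA was done on immortalized mouse embryonic fibroblasts (MEF), which are connective tissue cells grown from the body of C57BL/6 embryos at embryonic day 15.5 and transformed with simian virus 40. The cells were wild type (Hmga2+/+) or knockout (Hmga2-/-) and received water (Ctrl) or 10 ng/ml of the cytokine TGFB1 for 24 h. Each of the 4 combinations has 1 deposited library, so the spread between cultures is unknown and no p-values are given. A difference between genotypes also cannot be told apart from a difference between the cell lines or between the single libraries.

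HMGA2 is a small chromatin protein with AT-hooks, which bind the minor groove of A+T-rich DNA, and it is made mainly in embryonic cells and in tumours. The neighbours of a knocked-out gene lie on the chromosome that was altered, and the question here is how far their RNA differs between the genotypes, and at what distance. In man, the corresponding region is often amplified in sarcomas together with MDM2, which restrains p53, and CDK4, a cyclin-dependent kinase.

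Promoter sequences of the 3 neighbours within 0.5 Mb of Hmga2 that are discussed first are shown because these genes carried more RNA in Hmga2-/- MEF. Each run is the strand of the gene from 250 bases before to 50 bases after the RefSeq start in GRCm38.p6, which has the coordinates of mm10, and capitals mark the GC box, GGGCGG or its reverse complement CCGCCC. The runs lie on the minus strand at chr10:120201548-120201847 for Irak3, at chr10:120898922-120899221 for Msrb3 and at chr10:120979281-120979580 for Lemd3. The RefSeq start of Irak3 is 60 bases from the start of its measured transcript (120201537), which lies just outside the run. For Msrb3 and Lemd3 the starts are the same.
Irak3: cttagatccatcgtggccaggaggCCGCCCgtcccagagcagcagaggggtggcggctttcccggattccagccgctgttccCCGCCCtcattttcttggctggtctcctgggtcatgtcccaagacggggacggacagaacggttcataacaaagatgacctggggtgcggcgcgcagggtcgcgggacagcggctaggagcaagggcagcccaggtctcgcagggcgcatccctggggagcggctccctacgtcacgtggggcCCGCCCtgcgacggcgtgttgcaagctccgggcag
Msrb3: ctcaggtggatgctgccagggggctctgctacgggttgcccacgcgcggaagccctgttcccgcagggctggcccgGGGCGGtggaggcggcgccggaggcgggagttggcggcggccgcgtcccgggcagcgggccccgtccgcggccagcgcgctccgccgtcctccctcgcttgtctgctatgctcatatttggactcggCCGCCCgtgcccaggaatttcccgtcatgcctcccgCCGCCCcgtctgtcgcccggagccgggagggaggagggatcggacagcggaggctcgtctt
Lemd3: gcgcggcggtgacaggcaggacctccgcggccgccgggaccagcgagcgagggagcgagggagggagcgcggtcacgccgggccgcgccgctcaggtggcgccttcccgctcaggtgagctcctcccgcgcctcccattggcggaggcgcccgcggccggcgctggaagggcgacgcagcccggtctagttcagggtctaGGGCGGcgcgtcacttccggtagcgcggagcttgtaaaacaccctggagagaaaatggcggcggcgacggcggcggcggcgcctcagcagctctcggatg
The Irak3 and Msrb3 windows held 3 GC boxes each and the Lemd3 window 1. Of 27025 promoters of the same length, the first listed for each gene, 35.9% held at least 1 on either strand. The A+T content was 32.7% for Irak3, 26.0% for Msrb3 and 25.7% for Lemd3, against a median of 47.3% over these 27025 promoters. These windows held 26, 38 and 45 CG dinucleotides, against a median of 7. A second Irak3 window in the table, for another start, had 53.3% A+T, 8 CG dinucleotides and 0 GC boxes, and the window of Llph also had 0 GC boxes. The promoter table held 10 windows for 7 of the 11 protein-coding genes within 1 Mb, and Tmbim4, Tbc1d30 and Rassf3 are among those with no entry. Of the 10 windows, 6 held a GC box, 3 held a TATA box (TATAAA, 14.2% of the 27025 promoters), 2 an E-box (CACGTG, 7.24%), and 0 an AP-1 site (TGANTCA, 7.93%) or a SMAD element (GTCTAGAC, 0.211%), each searched on both strands. Grip1 and Irak3 have more than 1 of the 10 windows each, whereas the background holds 1 promoter per gene. A match to these letters is a description of the sequence and not a binding site.

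The labels were first checked on Hmga2. In wild-type cells its longest transcript reached 14.8 RPKM without and 40.7 RPKM with TGFB1, from 3544 and 9957 reads. RPKM are the reads on a transcript, divided by its length in kilobases and scaled to the mapped reads of the library. Both Hmga2-/- libraries had 0 reads, which is at least 1191-fold lower in Ctrl and at least 3299-fold lower in TGFB1 against a floor of 3 reads per library. All 7 transcripts that overlap Hmga2, 4 on its own strand and 3 antisense to it, had 0 reads in both Hmga2-/- libraries. The libraries held 56140000 to 57300000 mapped reads by the steps of their low values, and 3 reads on a transcript of 1000 bases correspond to 0.0524 to 0.0534 RPKM. The 7 fibroblast markers had 4.11 to 1500 RPKM. Markers of other cells reached at most 1.63 RPKM for macrophages, 7.39 for endothelium (Kdr, while Pecam1 and Cdh5 were at or under 0.048), 0.667 for epithelium, 2.64 for skeletal muscle (with Myod1 and Myog at 0) and 0.335 for neural crest and glia. In bulk RNA, fewer cells that express a gene and less RNA per cell cannot be told apart.

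Of the 696 flanking transcripts, 255 (36.6%) were at 0 in all 4 libraries, against 27.4% in the rest of chromosome 10 and 26.8% of all transcripts. The silent share includes the 57 olfactory receptor genes of the region, odorant receptors of the nose, none of which had a read. It also includes 114 of the 120 transcripts that no gene name covered, 115 of which are under 200 bases long. The other 576 transcripts belong to 301 genes, 243 of them protein-coding. A mean over the 4 libraries of at least 1 RPKM was reached by 296 transcripts and, with 1 transcript taken per gene, by 109 genes, which are called expressed here. The filter acts on the mean of both genotypes, and 1 of the 109 genes, Bbs10, passed it through 1 genotype only.

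Over the full 10 Mb on each side, the share of transcripts past 1.5-fold between genotypes was under that of all transcripts, in Ctrl and in TGFB1. In Ctrl, 36 of 696 (5.17%) were at least 1.5-fold higher in Hmga2-/- MEF, where 7.43% of all transcripts were, and 45 (6.47%) were at least 1.5-fold lower, where 7.69% of all were. In TGFB1, 49 (7.04%) were higher and 30 (4.31%) lower, against 8.18% and 7.74% of all transcripts. In both treatments 15 (2.16%) were higher and 14 (2.01%) lower, against 2.59% and 2.57%. A value of 0 RPKM was set to 0.001 here, so a single read can pass the fold. Transcripts at 0 in all 4 libraries can never pass it, and they were 36.6% of the flanking transcripts but 26.8% of all. The lower shares are thus not a comparison among transcripts with reads. The shares also depended on the width of the window. Within 5 Mb of Hmga2, 33 of 304 (10.9%) were higher in TGFB1 and 13 (4.28%) in both treatments, above the background of 8.18% and 2.59%. Transcripts of 1 gene count separately here, and Irak3, Wif1 and Tbc1d30 each entered the 13 with more than 1.

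Among the 109 expressed genes the higher and lower sides were uneven under TGFB1, as they also were in the rest of chromosome 10. In Ctrl, 3 genes (2.75%) were at least 1.5-fold higher in Hmga2-/- MEF (background 2.23% of 10792 expressed genes) and 1 (0.917%) lower (background 1.93%). In TGFB1, 7 genes (6.42%) were higher (background 3.01%, rest of chromosome 10 4.57%) and 1 (0.917%) lower (background 1.96%, rest of chromosome 10 0.962%). In both treatments 2 genes were higher, Irak3 and Msrb3 (1.83%, background 1.04%), and 0 lower (background 0.76%). The 7 higher genes in TGFB1 were Mdm2, Irak3, Tmbim4, Llph, Msrb3, Lemd3 and Myl6b. Of these 7, 5 lie within 0.5 Mb of Hmga2.

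The neighbours of Hmga2 were therefore described one by one. Within 1 Mb lie 47 transcripts and 17 named genes, 11 of them protein-coding. The limit of 1 Mb was chosen after the values were seen, so the counts below carry no test. Of the 11 protein-coding genes, 9 had a higher RPKM in Hmga2-/- than in Hmga2+/+ MEF in both treatments, by any amount. The same held for 33.2% of all expressed genes and 38.5% of those in the rest of chromosome 10. These shares are over genes of any type with a mean of at least 1 RPKM, which the 11 did not have to reach. Of the 8 such genes within 1 Mb, 7 (87.5%) were higher in both. The other 2 of the 11 were not higher in both, and 1 of them is Grip1, which had at most 4 reads in any library. The remaining 6 genes had at most 7 reads in any library, and 4 of them had none. All intervals given with a log2 difference (Hmga2-/- minus Hmga2+/+) are exact 95% intervals on the reads of 2 libraries, so they cover counting error only and compare these libraries, not the conditions. Among the 9 genes, the Ctrl intervals of Llph and Tbc1d30 included 0.

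**Figure D1:**
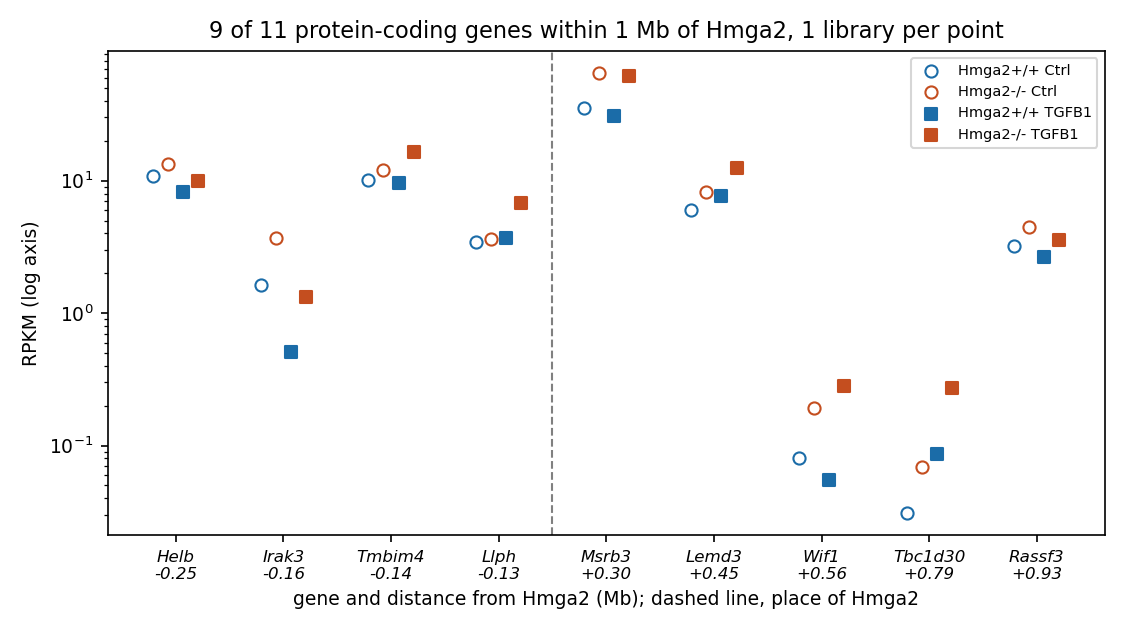
RPKM on a log axis of 9 of the 11 protein-coding genes within 1 Mb of Hmga2, those with values given in the text apart from Grip1, ordered by their distance from it in Mb; each point is 1 library, orange for Hmga2-/- and blue for Hmga2+/+, open circles for Ctrl and filled squares for TGFB1. The orange point lies above the blue point of the same treatment for each of these 9 genes, and the 2 genes not plotted are those that were not higher in both treatments.

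Irak3 encodes IRAK-M, an inhibitor of Toll-like receptor signalling, and lies 0.160 Mb below Hmga2 (120141654 to 120201537, minus strand). In Ctrl it had 1.63 RPKM with and 3.69 RPKM without Hmga2, and in TGFB1 0.506 and 1.33 RPKM. The log2 difference was 1.18 (0.97 to 1.39) in Ctrl and 1.39 (1.03 to 1.77) in TGFB1. TGFB1 lowered Irak3 in both genotypes, so the Hmga2-/- TGFB1 library, though above its Hmga2+/+ partner, stayed under both Ctrl libraries. The reads behind these values were 274, 626, 87 and 227 in the order Hmga2+/+ Ctrl, Hmga2-/- Ctrl, Hmga2+/+ TGFB1 and Hmga2-/- TGFB1.

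Msrb3 is a methionine sulfoxide reductase, an enzyme that repairs oxidized methionine, and lies 0.304 Mb above Hmga2 (120781101 to 120898971, minus strand) with 1 transcript in the table. In Ctrl it had 35.1 RPKM with and 65.3 RPKM without Hmga2, and in TGFB1 30.7 and 61.7 RPKM. The log2 differences were 0.90 (0.85 to 0.94) and 1.00 (0.96 to 1.05), which is 1.86-fold and 2.01-fold. Msrb3 was thus an abundant gene in which the genotypes stood apart in either treatment, while TGFB1 moved it little, with log2 responses of −0.19 in wild-type and −0.08 in knockout cells.

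Lemd3 encodes an inner nuclear membrane protein that binds SMAD proteins and restrains TGFB signalling, and lies 0.446 Mb above Hmga2 (120923411 to 120979330, minus strand). It had 5.99 and 8.15 RPKM in the Hmga2+/+ and Hmga2-/- Ctrl libraries, and 7.69 and 12.4 RPKM in the TGFB1 libraries. The log2 difference was 0.45 (0.35 to 0.54) in Ctrl and 0.69 (0.61 to 0.77) in TGFB1. Lemd3 passed 1.5-fold in TGFB1 only, by 1.61-fold against 1.36-fold in Ctrl, and whether these 2 differences differ was not tested.

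Tmbim4 and Llph lie side by side on the plus strand, 0.136 and 0.129 Mb below Hmga2. Tmbim4, a membrane protein of the Golgi that counters cell death, had 10.2 and 12 RPKM in Ctrl and 9.68 and 16.6 RPKM in TGFB1, Hmga2+/+ before Hmga2-/-. Llph, a small nucleolar protein, had 3.43 and 3.65 RPKM in Ctrl and 3.67 and 6.75 RPKM in TGFB1. For both genes 3 libraries were close together and the Hmga2-/- TGFB1 library stood above them. The log2 difference in TGFB1 was 0.78 (0.61 to 0.95) for Tmbim4 and 0.88 (0.65 to 1.11) for Llph. In Ctrl it was 0.24 (0.05 to 0.42) for Tmbim4, and for Llph 0.09 with an interval from −0.18 to 0.36, so that a Ctrl difference of Llph was not detectable at this depth. Tmbim4 also has a short transcript of 595 bases whose start is 75 bases from that of Irak3 on the opposite strand. This transcript had 6 and 18 reads in Ctrl and 5 and 9 reads in TGFB1, Hmga2+/+ before Hmga2-/-. The longer Tmbim4 transcript reported above starts at 120208826, outside the Irak3 window shown above.

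Helb and Rassf3 differed by less. Helb, a DNA helicase 0.248 Mb below Hmga2, had 10.9 and 13.4 RPKM in Ctrl and 8.19 and 9.87 RPKM in TGFB1, with log2 differences of 0.29 (0.22 to 0.37) and 0.27 (0.19 to 0.35). Rassf3, a member of the Ras association domain family 0.933 Mb above Hmga2, had 3.24 and 4.47 RPKM in Ctrl and 2.64 and 3.58 RPKM in TGFB1, with log2 differences of 0.46 (0.31 to 0.62) and 0.44 (0.27 to 0.61). Both genes were under 1.5-fold and had nearly the same difference in either treatment. Helb shares 3653 bases with Grip1, which lies on the opposite strand and encodes a scaffold for glutamate receptors, and none of the 12 Grip1 transcripts had more than 4 reads in any library.

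A pair of neighbours was scarcely transcribed. Wif1, a secreted inhibitor of WNT proteins 0.557 Mb above Hmga2, had 10 and 24 reads in Ctrl and 7 and 36 reads in TGFB1, Hmga2+/+ before Hmga2-/-, at 0.055 to 0.284 RPKM. Tbc1d30, which activates the GTPase of a Rab protein and lies 0.787 Mb above Hmga2, had 10 and 22 reads in Ctrl and 28 and 88 reads in TGFB1, at 0.031 to 0.272 RPKM. The log2 difference of Wif1 was 1.26 (0.13 to 2.48) in Ctrl and 2.37 (1.18 to 3.78) in TGFB1. That of Tbc1d30 was 1.15 (−0.01 to 2.37) and 1.66 (1.03 to 2.33). At these levels a pseudocount of 1 RPKM, added to every value, leaves 0.28 for Wif1 and 0.23 for Tbc1d30 in TGFB1.

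The difference was next set against distance. The 6 expressed genes within 0.5 Mb of Hmga2 were all higher in Hmga2-/- MEF in both treatments, by any amount, with a median log2 difference of 0.37 in Ctrl and 0.83 in TGFB1. Between 0.5 and 1 Mb there were 2 expressed genes, with medians of 0.22 and 0.28. For the 8 genes within 1 Mb the medians were 0.37 and 0.74, and 7 of 8 were higher in both treatments by any amount (33.2% of all expressed genes). On the lower side (4 genes) the medians were 0.27 and 0.83, and on the upper side (4 genes) 0.45 and 0.57. Both flanks of Hmga2 thus contributed.

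From 1 Mb outward the medians were near those of the genome. The 7 expressed genes at 1 to 2 Mb had medians of 0.11 and 0.06, the 18 at 2 to 5 Mb −0.04 and 0.06, and the 76 beyond 5 Mb 0.02 and 0.07, Ctrl before TGFB1. Of the genes beyond 1 Mb, 45 (44.6%) were higher in both treatments by any amount, compared with 160 of 416 (38.5%) in the rest of chromosome 10 and 33.2% of all expressed genes. The medians were −0.01 and 0.07 in the rest of chromosome 10 and −0.02 and 0.04 over all genes. Of the genes beyond 1 Mb, 1 was at least 1.5-fold higher and 1 lower in Ctrl (background 2.23% and 1.93%), and 2 were higher and 1 lower in TGFB1 (background 3.01% and 1.96%). Those in Ctrl were the short Mir8104 (100 bases) and Mir546 (120 bases), so no protein-coding gene beyond 1 Mb passed there.

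**Figure D2:**
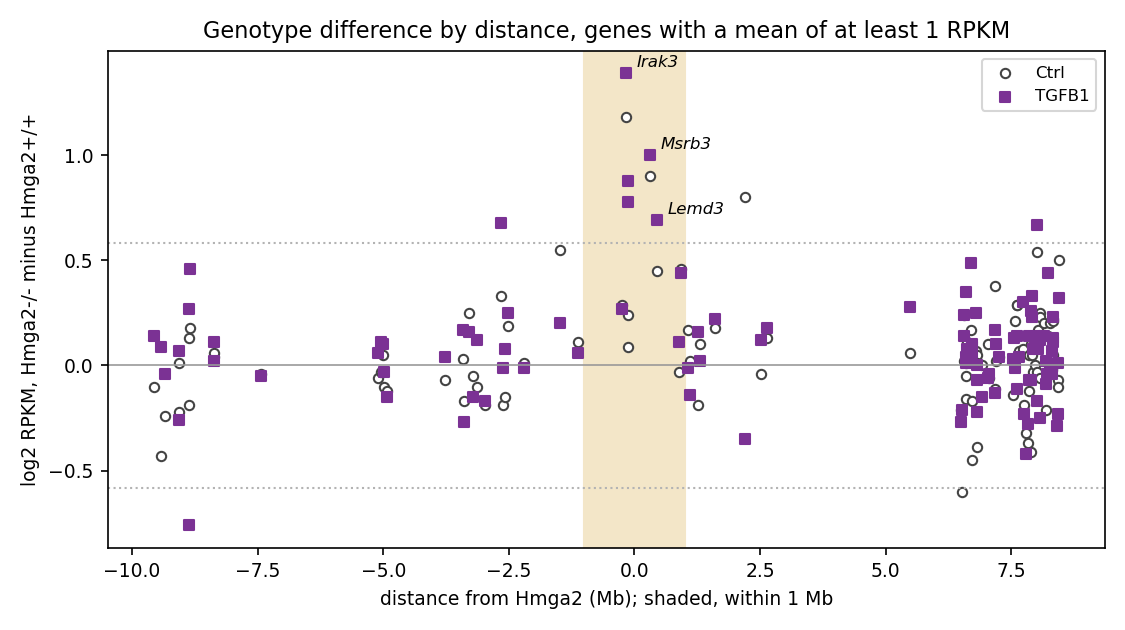
Log2 difference in RPKM (Hmga2-/- minus Hmga2+/+) of the 109 expressed flanking genes against distance from Hmga2 in Mb, with open circles for Ctrl, filled squares for TGFB1 and dotted lines at 1.5-fold. Of the 7 squares above the upper line, 5 lie in the shaded 1 Mb around Hmga2.

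The 3 expressed genes nearest to Hmga2 beyond 1 Mb differed little between the genotypes. Tbk1, a kinase of innate immune signalling 1.07 Mb above Hmga2, had 21.9 and 24.6 RPKM in Ctrl and 20.5 and 20.4 RPKM in TGFB1, with log2 differences of 0.17 and −0.01. Xpot, the tRNA exporter 1.11 Mb above, had 8.57 and 8.70 RPKM in Ctrl and 19.1 and 17.3 RPKM in TGFB1, with differences of 0.02 and −0.14. Cand1, an exchange factor of cullin ubiquitin ligases 1.12 Mb below, had 17.7 and 19.1 RPKM in Ctrl and 20.9 and 21.7 RPKM in TGFB1, with differences of 0.11 and 0.06. These 3 genes lay within 0.2 of 0 on the log2 scale in both treatments. Of the 7 expressed genes at 1 to 2 Mb, 4 (57.1%) were higher in both treatments by any amount and 0 were lower in both. Over all expressed genes these shares were 33.2% and 28.5%. Dyrk2, a protein kinase 1.49 Mb below, had 11.8 and 17.3 RPKM in Ctrl, a log2 difference of 0.55 (0.45 to 0.65), and 22.5 and 25.7 RPKM in TGFB1, a difference of 0.20 (0.12 to 0.27).

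Chromosome 10 was then divided into bins of 1 Mb counted from Hmga2, of which 65 held at least 3 expressed genes. In the bin next to Hmga2 the median over genes of the mean of both log2 differences was 0.50 on the lower side and 0.51 on the upper side, from 4 genes each. In the other 63 bins this median ran from −0.15 to 0.30. A single other bin had medians of at least 0.25 in both treatments, with 0.25 in Ctrl and 0.28 in TGFB1 over the 4 genes Nhsl1, Hebp2, Perp and Tnfaip3. In single treatments the other bins reached 0.25 in Ctrl and 0.44 in TGFB1, so the lower bin next to Hmga2 (0.27 in Ctrl) stood only slightly above them in Ctrl. Bins with 1 or 2 expressed genes were left out, and some of them were higher in Ctrl, up to 0.45 for a bin of 1 gene. The bin 1 to 2 Mb below Hmga2, with 2 genes, had 0.33 in Ctrl and 0.13 in TGFB1.

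**Figure D3:**
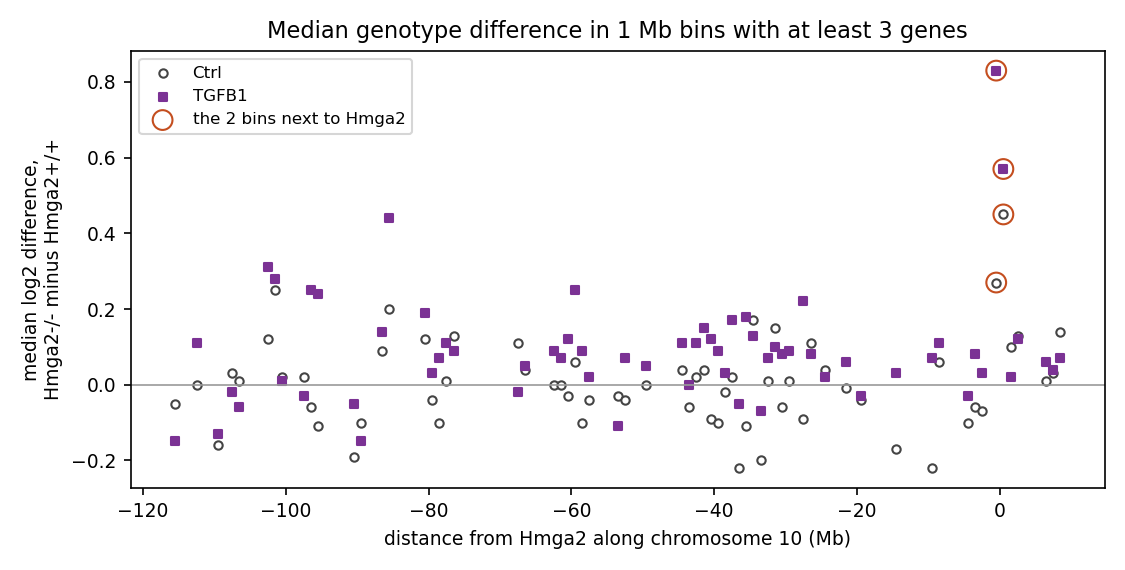
Median log2 difference in RPKM (Hmga2-/- minus Hmga2+/+) of expressed genes in the 65 bins of 1 Mb along chromosome 10 that held at least 3 of them, against the distance of the bin from Hmga2, with open circles for Ctrl and filled squares for TGFB1. The circled bins next to Hmga2 have 0.27 and 0.45 in Ctrl and 0.83 and 0.57 in TGFB1, and the other bins reach 0.25 and 0.44.

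The Ctrl and TGFB1 comparisons share no library, so each gives a separate value of the genotype difference from the same cell lines. Across the 109 expressed flanking genes, Pearson's r between both differences was 0.56, and it was 0.33 over the 101 genes beyond 1 Mb. It was 0.39 over the 416 genes in the rest of chromosome 10 and 0.53 over all 10792 genes. The set of all genes, unlike the other sets, includes Mir763, which overlaps Hmga2 and had 0 reads in both Hmga2-/- libraries. Its log2 differences of −15.18 in Ctrl and −16.41 in TGFB1 were the lowest of that set. How far the value of 0.53 rests on such genes was not tested, so it is not directly comparable with 0.56. These correlations are across genes, which are not independent replicates and which share their 4 libraries. The larger value in the window than beyond 1 Mb rests on the 8 neighbours.

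**Figure D4:**
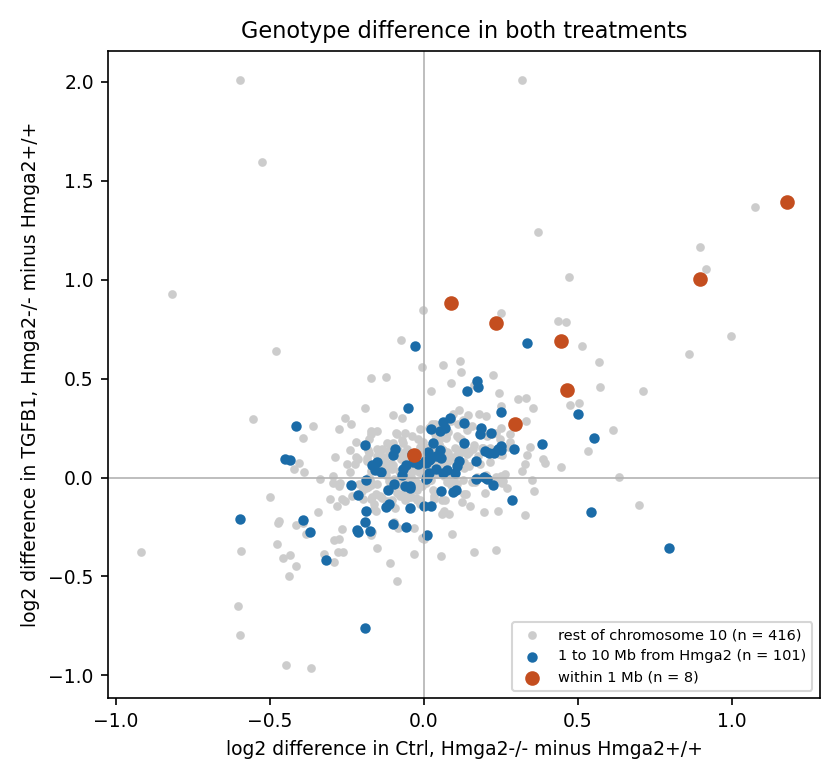
Log2 genotype difference in TGFB1 against that in Ctrl, 1 point per expressed gene: orange within 1 Mb of Hmga2, blue further out in the window and grey in the rest of chromosome 10. Of the 8 orange points, 7 lie right of and above 0.

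The flanking genes were also counted by function, using lists that were drawn up with results of these data known. Of the 18 genes that are amplified with HMGA2 in human sarcoma, 14 were expressed, with median log2 differences of 0.02 in Ctrl and 0.08 in TGFB1, close to those of all genes. In TGFB1, 1 of the 14 was at least 1.5-fold higher (background 3.01%), Mdm2, the ubiquitin ligase that restrains p53, 2.65 Mb below Hmga2. Mdm2 had 31.5 and 39.7 RPKM in Ctrl and 57.2 and 91.5 RPKM in TGFB1, with log2 differences of 0.33 (0.28 to 0.38) and 0.68 (0.64 to 0.71). Cdk4 had 80.6 and 72.2 RPKM in Ctrl and 69.1 and 70.9 RPKM in TGFB1, with differences of −0.16 and 0.04. The p53 regulator and the cell cycle kinase of this region thus did not differ alike. Cpm, a membrane carboxypeptidase below the expression limit, had 0.715 and 0.348 RPKM in Ctrl, a difference of −1.04 (−1.40 to −0.69), and 0.515 and 0.495 RPKM in TGFB1, a difference of −0.06 (−0.40 to 0.28). All 7 genes of the cell cycle and p53 list were expressed, with medians of −0.10 and 0.04.

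Of the 16 genes for secreted factors and surface receptors, 6 were expressed, with medians of 0.03 and −0.01, and 4 had 0 reads, namely Inhbc, Inhbe, Tac2 and Gpr182. Lgr5, a receptor for R-spondins that marks stem cells, was low and lay 4.77 Mb below Hmga2. It had 0.533 and 0.166 RPKM in Ctrl and 0.474 and 0.124 RPKM in TGFB1, from 140, 44, 127 and 33 reads. Its log2 difference was −1.68 (−2.21 to −1.18) in Ctrl and −1.93 (−2.53 to −1.37) in TGFB1, so both Hmga2-/- libraries lay under both Hmga2+/+ libraries. Lrp1, a large endocytic receptor, had 57.3 to 62.9 RPKM in the 4 libraries, with differences of −0.06 and −0.04. Itga7, a laminin receptor subunit, had 0.979 and 1.38 RPKM in Ctrl and 1.71 and 2.14 RPKM in TGFB1, with differences of 0.50 (0.24 to 0.75) and 0.32 (0.13 to 0.52).

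Of the 9 genes for innate immunity and cytokines, 4 were expressed (Irak3, Tbk1, Stat2 and Stat6), and the cytokine genes Ifng, Il22 and Il23a and the lysozyme gene Lyz1 had 0 reads. Stat2, a transcription factor of the interferon response, had 43.0 and 34.5 RPKM in Ctrl and 27.1 and 20.3 RPKM in TGFB1, with log2 differences of −0.32 (−0.36 to −0.28) and −0.42 (−0.47 to −0.37). Stat6, which acts downstream of interleukin 4, had 12.2 and 15.9 RPKM in Ctrl and 13.2 and 14.9 RPKM in TGFB1, with differences of 0.38 (0.31 to 0.46) and 0.17 (0.10 to 0.25). The list therefore held genes on either side of 0. The 13 genes for metabolism and translation were all expressed, with medians of 0.07 and 0.13, and 8 of them were higher in both treatments by any amount (38.5% in the rest of chromosome 10 and 33.2% of all expressed genes), none by 1.5-fold. Of the 4 muscle and cytoskeleton genes 3 were expressed, with medians of −0.03 and 0.09.

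TGFB1 itself moved flanking genes in much the same way in both genotypes. Among the 109 expressed genes, 10 (9.17%, background 9.56%) rose and 11 (10.1%, background 11.5%) fell at least 1.5-fold in both genotypes, and over all 696 transcripts 42 (6.03%, background 6.67%) rose and 67 (9.63%, background 12.2%) fell. Of the 13 genes on the metabolism and translation list, 4 rose and 1 fell in both genotypes. Shmt2, the mitochondrial serine hydroxymethyltransferase, had 14.8 RPKM without and 47.7 RPKM with TGFB1 in Hmga2+/+ MEF, and 15.9 against 45.7 RPKM in Hmga2-/- MEF, log2 responses of 1.69 and 1.52. Xpot rose by 1.16 and 1.00, Mars, a methionyl-tRNA synthetase, by 0.84 and 0.83, Cct2, a chaperonin subunit, by 0.93 and 0.84, and Mettl1, a tRNA methyltransferase of the sarcoma list, by 1.02 and 1.24. Mdm2 rose by 0.86 with and by 1.20 without Hmga2. Among the genes that fell were Irak3 (−1.69 and −1.47), Stat2 (−0.67 and −0.77), Mmp19, a matrix metalloproteinase (−0.80 and −1.07), and Smarcc2, a subunit of the BAF chromatin remodeller (−0.77 and −0.69).

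Across the 109 genes, r between the responses in Hmga2+/+ and Hmga2-/- MEF was 0.89, compared with 0.93 in the rest of chromosome 10 and 0.86 over all expressed genes. Near Hmga2, Llph and Tmbim4 lay off this relation. The log2 response of Llph was 0.09 in wild-type and 0.89 in knockout cells, and that of Tmbim4 was −0.07 and 0.47. Myl6b, a myosin light chain 8.02 Mb above Hmga2, had 3.20 RPKM without and 0.896 RPKM with TGFB1 in Hmga2+/+ MEF, and 3.14 against 1.42 RPKM in Hmga2-/- MEF, log2 responses of −1.84 and −1.14. Whether these responses differ between genotypes was not tested. The 3 other expressed genes past 1.5-fold between genotypes had few reads or are short: Mir8104 (100 bases) had 4 to 9 reads, Mir546 (120 bases) 49 to 93 and Gm5176 (557 bases) 30 to 58. Mir8104 and Mir546 each lie within the span of a longer gene on the same strand, which for Mir546 is Ctdsp2.

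**Figure D5:**
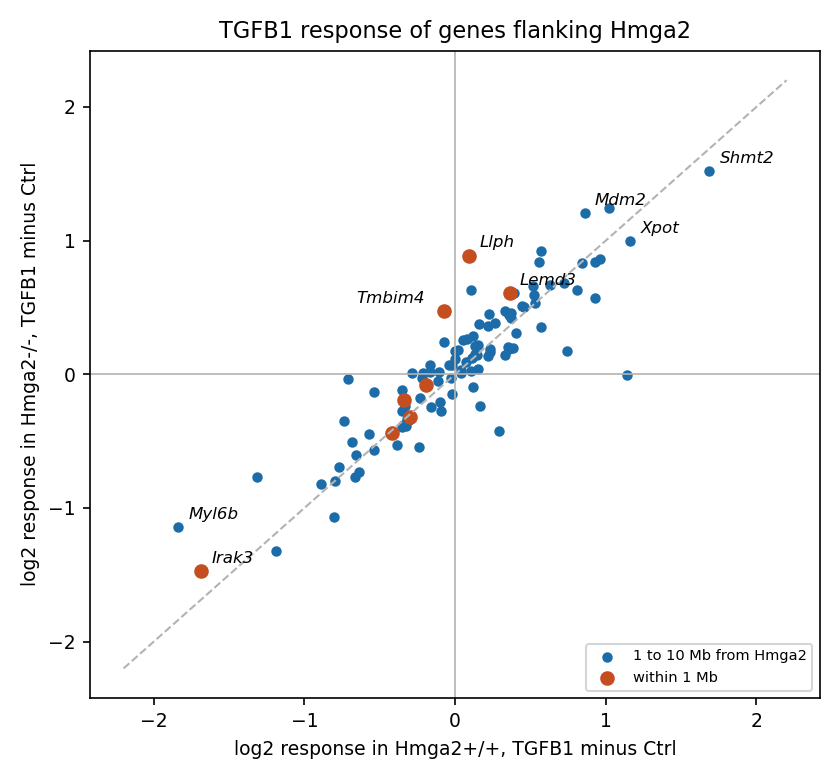
Log2 response to TGFB1 (TGFB1 minus Ctrl) in Hmga2-/- MEF against that in Hmga2+/+ MEF for the 109 expressed flanking genes, orange within 1 Mb of Hmga2 and blue further out, with the line of equal responses dashed. Llph (0.09 and 0.89) and Tmbim4 (−0.07 and 0.47) lie above the line, and Irak3 is at −1.69 and −1.47.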

How the data were processed

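Strand-specific RNA-seq of total RNA was analysed for 4 libraries of MEF, 1 per genotype and treatment. After trimming by trimmomatic and mapping to mm10 by HISAT2 2.1.0, the authors used HOMER to count stranded reads over the known genes of UCSC and deposited RPKM rounded to 3 decimals. Exons are the feature counted by the table's header and genes by the methods. The study speaks of duplicates, and whether libraries were pooled is not stated.

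From the RPKM, mapped reads per library were derived as the depth at which low values of transcripts under 600 bases become whole reads. Of the nonzero values tested, 100% lay within 0.1 of a whole read. No count test was run, since no condition has replicates. A value of 0 RPKM was set to 0.001, and 1.5-fold was the threshold, after the study's methods. Intervals of log2 differences are exact (Clopper-Pearson, 95%) on the reads of 2 libraries. Those of the shares, used only to judge the alternatives, are exact on the number of transcripts.

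Transcripts were named where a gene of GENCODE vM21 on their strand overlapped at least 50% of their span, as held for 57708 of 63759. Each gene is represented by the transcript with the longest span, and distance is the gap between this transcript and Hmga2. Genes named in the text were the 10 protein-coding genes nearest to Hmga2 on each side, those past 1.5-fold in both treatments and the members of the function lists. Bbs10, Gm5176, Mir8104, Mir546 and the 4 genes of the other bin were named after their values were seen, and not every gene under the rule is described: 1 expressed gene within 1 Mb enters the counts and medians and is not reported here. The members and lists were chosen with earlier results of these data known. Motifs were searched in RefSeq promoters of GRCm38.p6.

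Scripts ran in Python 3.11.15 with scipy 1.17.1, numpy 2.4.6, pandas 2.3.3 and matplotlib 3.10.9, and were tested on simulated data. Alternatives concerned the pseudocount, a minimum mean RPKM, the scaling, 1 transcript per locus, a 2-fold threshold and a window of 5 Mb.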

Additional observations from a re-analysis of the deposited data

Results flagged for a closer look

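In 4 of the genes named by the rule on the nearest genes and the function lists, the genotype difference (log2 RPKM, Hmga2-/- minus Hmga2+/+) had opposite signs in Ctrl and TGFB1, with both counting intervals off 0. The difference between treatments was not tested. Myl6, a myosin light chain, had 104 and 152 RPKM in Ctrl and 127 and 113 RPKM in TGFB1, Hmga2+/+ before Hmga2-/-, which is 0.54 (0.49 to 0.60) and −0.17 (−0.23 to −0.11). E2f7, a repressor of cell cycle genes, had −0.10 and 0.14. Nup107, a nuclear pore subunit, had −0.15 and 0.08. Shmt2 had 0.10 and −0.06. Myl6 was the only one of the 4 with a value over 0.2 on either side. Outside that rule, and picked after their values were seen, Baz2a (0.29 and −0.11) and Ankrd52 (0.10 and −0.07) also had opposite signs with both intervals off 0.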

How the results depend on the processing

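With single libraries the spread between cultures is not known, and depth limits low genes most. No paired analysis was possible because the conditions hold 1 library each and share no replicate numbers that mark a pair. Of 76 values of the summary results under the alternatives, 43 stayed, 33 moved and 0 reversed. A share stayed if it lay within the exact 95% interval of the main share, and a median if it stayed within 1.5 times. The interval of a share is taken over the 696 transcripts and not over reads. It treats transcripts as independent, which those of 1 gene are not, so it does not measure counting error. A share has no sign to reverse, so only the medians could have done so. The percentages of the 696 transcripts are given in the order higher in Hmga2-/- in Ctrl, lower in Ctrl, higher in TGFB1, lower in TGFB1, higher in both, lower in both, rising on TGFB1 in both genotypes and falling in both. With a pseudocount of 0.1 they were 1.87, 2.87, 3.74, 1.15, 0.862, 0.431, 3.30 and 6.47. With a pseudocount of 1 they were 0.862, 0.287, 2.30, 0, 0.575, 0, 2.16 and 3.30. Above a minimum mean of 1 RPKM, 2.36 were higher and 0.338 lower in Ctrl, 0.338 lower in TGFB1 and 0 lower in both. Above 0.1 RPKM, 3.57 were higher in Ctrl and 12.9 fell in both genotypes. With 1 transcript per locus 4.38 rose. At 2-fold, 4.60 were lower in Ctrl, 4.17 higher in TGFB1, 3.30 rose and 4.17 fell. In a window of 5 Mb, 10.9 were higher in TGFB1 (8.18 of all transcripts), 4.28 higher in both (2.59), 9.54 rose (6.67) and 4.93 fell (12.2). For the other alternatives the share over all transcripts was not computed. Whether those percentages are particular to the region therefore cannot be told. Fewer transcripts near 0 pass the fold under a pseudocount or filter by construction, and the cause of the other moves was not tested. A limit of 2 Mb, chosen after the data were seen, lowered the median log2 difference of the neighbours to 0.18 in Ctrl and 0.22 in TGFB1. Of 408 values of the named genes, 393 stayed within the counting interval and 15 moved. Intervals with no lower limit hold even large moves, such as Grip1 in Ctrl (−2.32, and −0.07 with a pseudocount of 0.1). Among those past 1.5-fold 0 changed sign, but none could, since a pseudocount keeps the sign and rescaling shifted values little. With a pseudocount of 1 Irak3 had 0.84 and 0.63 and Lgr5 −0.39 in either treatment. Scaling by the median ratio shifted differences between values above 0 by about 0.03 in Ctrl and −0.01 in TGFB1. Where a value was 0 the shift was another, as for Ptprr in Ctrl (from 2.32 to 2.3).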
